A study of Mus musculus with 2 samples.

Results

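Cluster 1 is 1 of the 18 clusters that the authors drew among green fluorescent protein (GFP)-sorted mammary tumor cells, and its cells are the shallowest of all, with the fewest transcripts captured per cell. Its members are all cells that the deposited annotation places in cluster 1, namely 345 cells of mouse 1 and 501 of mouse 2, or 846 of 9159 annotated cells. They made up 9.01% of the annotated cells of mouse 1 (95% exact Clopper-Pearson interval 8.12 to 9.96) and 9.40% of those of mouse 2 (8.63 to 10.2), but held only 0.945% and 1.28% of the annotated unique molecular identifiers (UMIs, 1 for each captured transcript molecule). Intervals here cover counting error only.

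The series holds 1 condition, tumors of 2 mice that carried Krt8-CreERT, Rosa26-mTmG and MMTV-PyMT, with 1 library per mouse. The MMTV promoter drives the polyoma middle T oncogene in the mammary epithelium, and the Krt8 promoter, active in luminal cells, drives a recombinase that tamoxifen switches on, so that GFP marks luminal cells and their descendants. Tamoxifen was given at 150 mg/kg, for 3 days at week 5 of age and for 3 more at week 6, and tumors were taken at 1.5 cm3. Dissociated cells negative for DAPI, CD31 and CD45 and positive for GFP were sorted, which removes most endothelial cells, leukocytes and cells with open membranes at the time of the sort. The comparison below sets the summed UMIs of the cluster 1 cells of each mouse against those of all other annotated cells of the same mouse, 3484 and 4829 cells. The mouse is the replicate (n = 2). Since the clustering used these very counts, every difference is a description, and no test was made.

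As background, most RNA of a cell is ribosomal RNA, which is transcribed in the nucleolus as 1 long precursor and has no poly(A) tail. Messenger RNAs of ribosomal proteins, actin or the respiratory chain lie in the cytoplasm, the 13 mitochondrially encoded mRNAs lie inside the mitochondria, and long noncoding RNAs such as Malat1 stay in the nucleus. The 3′ assay used here primes on poly(A) stretches, and a droplet library reads whatever RNA the droplet holds. A low UMI count, a raised mitochondrial share and a raised share of nuclear or ribosomal RNA are therefore routinely read as measures of the state of the captured cell.

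The most abundant of the transcripts raised in cluster 1 include a group at a ribosomal RNA locus on chromosome 17. Gm26917 spans chr17:39843013-39846341 on the plus strand (GRCm38, GENCODE vM21) and Gm42418 spans chr17:39846958-39848788 on the same strand. Both are annotated as long intergenic noncoding RNAs. RefSeq places Rn18s-rs5, a pseudogene related to 18S ribosomal RNA and listed with Gm42418 as a synonym, at chr17:39846354-39848202, which begins 12 bases past the end of Gm26917 and covers 1245 of the 1831 bases of Gm42418. The first 80 bases of each transcript are printed because Gm26917 had the largest ratio of all genes counted and Gm42418 the highest level in cluster 1, and capitals mark the stretch GTGCCAGCAGCCGCGGTAA, which is conserved in small-subunit ribosomal RNA across all domains of life.
Gm26917, chr17:39843013-39843092: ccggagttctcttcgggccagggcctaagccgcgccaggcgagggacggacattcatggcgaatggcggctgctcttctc
Gm42418, chr17:39846958-39847037: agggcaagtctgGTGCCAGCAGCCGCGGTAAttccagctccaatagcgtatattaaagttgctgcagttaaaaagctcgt
Of 141767 transcripts in the annotation, searched on the transcribed strand, 1 holds these 19 bases, and it is Gm42418. Gm26917 does not hold the stretch, and its 3329 bases are 69.1% G and C. A further transcript, AY036118, is annotated on the opposite strand with its 923 bases wholly inside Gm42418. How the counting used strand is not given in the sources used here, and whether reads of AY036118 and Gm42418 were kept apart was not tested.

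Depth was the first property of the cluster. Cluster 1 cells held a median of 1257 UMIs in mouse 1 and 1009 in mouse 2, against 16180 and 10419 in the other annotated cells. Their quartiles reached down to 801 and 736 UMIs, and 39.4% and 49.3% of them had under 1000. The range ran from 500 to 8677 UMIs in mouse 1 and from 501 to 20476 in mouse 2, with 13 and 14 cells above 5000. The lower end sits at the shallowest cell that the annotation holds, and 28 and 57 cells of the cluster had between 500 and 600 UMIs. The next shallowest clusters were cluster 5, with medians of 2058 and 1638 UMIs, and cluster 14, with 2908 and 2085. Of all annotated cells with 500 to 2000 UMIs, cluster 1 supplied 54.5% in mouse 1 and 49.5% in mouse 2.

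Cluster 1 cells also held fewer kinds of transcripts at equal depth. With each cell thinned at random to 500 UMIs, the median number of genes per cell was 278 in mouse 1 and 300 in mouse 2, against 346 and 345 in the other annotated cells. Without thinning, the medians were 563 and 530 genes, against 3679 and 2865. Cluster 5, the other shallow cluster, gave 322 and 331.5 genes at 500 UMIs, above cluster 1 in both mice.

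The mitochondrial share of cluster 1 was raised and widely spread. Its median was 9.39% in mouse 1 and 7.56% in mouse 2, against 6.11% and 5.35% in the other annotated cells. Cells above 15% made up 24.1% and 16.6% of cluster 1, against 2.99% and 3.25% of the other cells. The upper end was bounded by the authors' removal of outlying cells, since no annotated cell exceeded 19.4% in mouse 1 or 19.3% in mouse 2. At the other end, 25.5% and 34.7% of cluster 1 cells lay under 5%, against 31.6% and 43.8% of the other cells. Cluster 11 had higher medians than cluster 1, at 11.4% and 11.6%, with 5237 and 4196 UMIs per cell, while clusters 5 and 14 had lower mitochondrial medians than all other clusters.

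**Figure D1:**
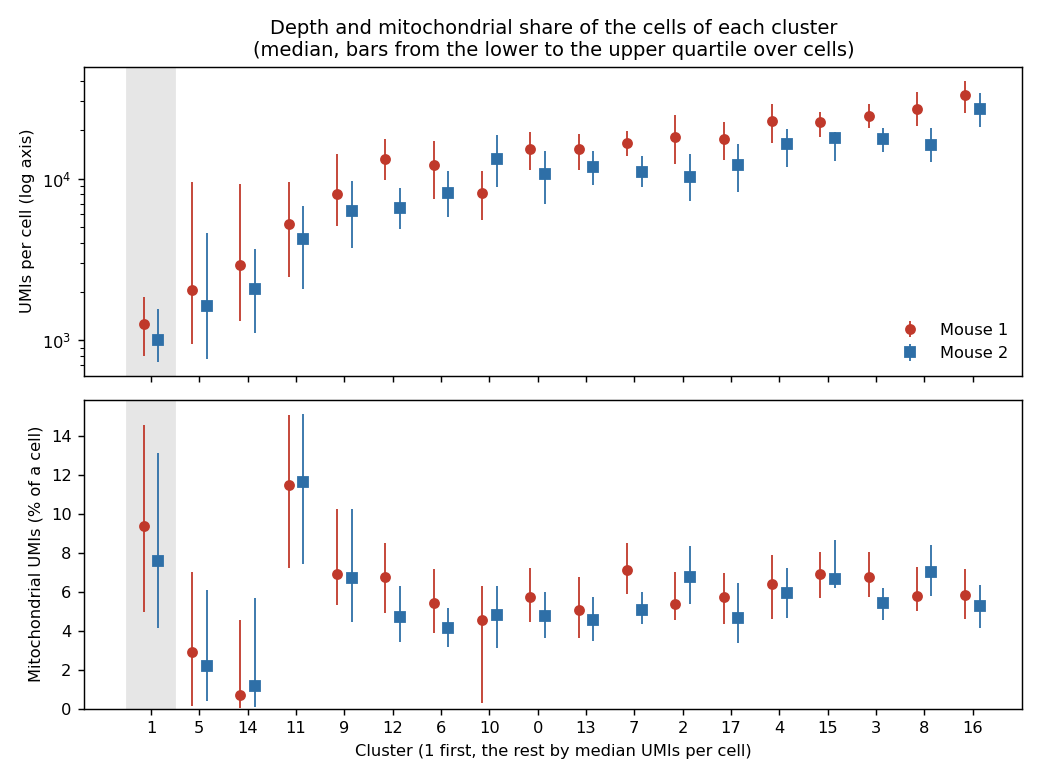
UMIs per cell (top, log axis) and mitochondrial percent of each cell's UMIs (bottom) for the 18 clusters, with cluster 1 at the left in grey and the rest ordered by depth; points are medians over cells and bars run from the lower to the upper quartile, in mouse 1 (circles) and mouse 2 (squares). Cluster 1 has the lowest depth in both mice, 1257 and 1009 UMIs, with mitochondrial medians of 9.39% and 7.56%.

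Among 2920 genes with a mean of at least 50 counts per 1000000 UMIs (CPM) over the 4 sums, 364 were at least 2-fold higher in cluster 1 in both mice (12.5% of the genes counted) and 620 at least 2-fold lower (21.2%). In all, 33.7% passed in 1 direction, and 2587 genes had the same sign in both mice. At 4-fold in both mice, 85 genes were higher and 49 lower. The median log2 ratio over all genes counted was -0.38 in mouse 1 and -0.30 in mouse 2. Gm26917, Gm42418, AY036118, Lars2 and Malat1 together made up 22.0% and 20.2% of the UMIs of cluster 1, against 1.96% and 2.89% of those of the other annotated cells. Scaled by trimmed means (TMM), which moved the median to -0.01, the counts were 524 higher and 361 lower, so that the share of higher genes among those called was 59.2% in place of 37.0%. Log2 ratios below are on the CPM scale, where a gene at the median sits at -0.33, with the SD over the 2 mice.

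Gm26917 showed the largest ratio. It had 59406 CPM in cluster 1 of mouse 1 and 44744 in that of mouse 2, against 184.8 and 186.8 CPM in the other annotated cells, a log2 ratio of 8.12 ± 0.30 (SD, n = 2), or 278-fold. The counting interval of the fold was 315 to 329 in mouse 1 and 234 to 245 in mouse 2, so the mice differ by more than counting error. Cluster 1 held 75.4% of all annotated Gm26917 UMIs in mouse 1 and 75.6% in mouse 2. In absolute numbers, a cluster 1 cell held a mean of 95.4 and 65.0 Gm26917 UMIs, against 3.08 and 2.18 in a cell of the other clusters. Thinned to 500 UMIs, 93.9% (90.8 to 96.2) and 95.4% (93.2 to 97.1) of cluster 1 cells had a Gm26917 UMI, against 4.65% and 6.09% of the other cells.

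The difference in Gm26917 ran through the whole cluster. Over single cells its share of UMIs had a median of 4.89% in mouse 1 and 3.94% in mouse 2, and 0 among the other cells of both mice. The lowest 5% of cluster 1 cells lay under 0.195% and 0.142%, and the highest 5% of the other cells lay above 0.0507% and 0.0714%, so the bulk of both groups did not overlap. The highest level in any other cluster was 1239 CPM in cluster 11 of mouse 1 and 1507 CPM in cluster 5 of mouse 2.

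Gm42418, which carries the conserved 18S stretch, followed at a higher background. It had 75457 and 73490 CPM in cluster 1, against 5297 and 5066 CPM in the other annotated cells, a log2 ratio of 3.85 ± 0.02. Every cluster 1 cell thinned to 500 UMIs held a UMI of it, against 86.8% and 85.3% of the other cells. Despite the low depth, its mean of 121 and 107 UMIs per cell was above that of each of the other 17 clusters, which ran from 45.1 to 109 in mouse 1 and from 26.0 to 90.7 in mouse 2. AY036118, inside it, had a log2 ratio of 2.89 ± 0.14. The 3 transcripts together took 13.8% and 12.1% of the UMIs of cluster 1, against 0.591% and 0.563% of those of the other cells.

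Lars2, on chromosome 9 (chr9:123366927-123462666), encodes the mitochondrial leucyl-tRNA synthetase. It had 9758 and 10794 CPM in cluster 1, against 163.4 and 189.8 CPM in the other annotated cells, a log2 ratio of 5.86 ± 0.05. Cluster 1 held 36.3% and 42.4% of all annotated Lars2 UMIs, and the highest level in another cluster was 1058 and 1353 CPM, in cluster 11 of both mice. Per cell there were 15.7 Lars2 UMIs in cluster 1 of both mice, against 2.72 and 2.21 in the other cells.

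Malat1, the abundant nuclear noncoding RNA on chromosome 19 (chr19:5795690-5802672), had 71950 and 70798 CPM in cluster 1, against 13495 and 23066 CPM in the other annotated cells, a log2 ratio of 2.02 ± 0.56. The level in cluster 1 was nearly the same in both mice, and the spread came from the other cells. Clusters 10 of mouse 1 and 2 of mouse 2 came closest, at 29744 and 40239 CPM. In UMIs per cell, Malat1 was not raised: 116 and 103 in cluster 1, below 15 of the 17 other clusters in each mouse.

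**Figure D2:**
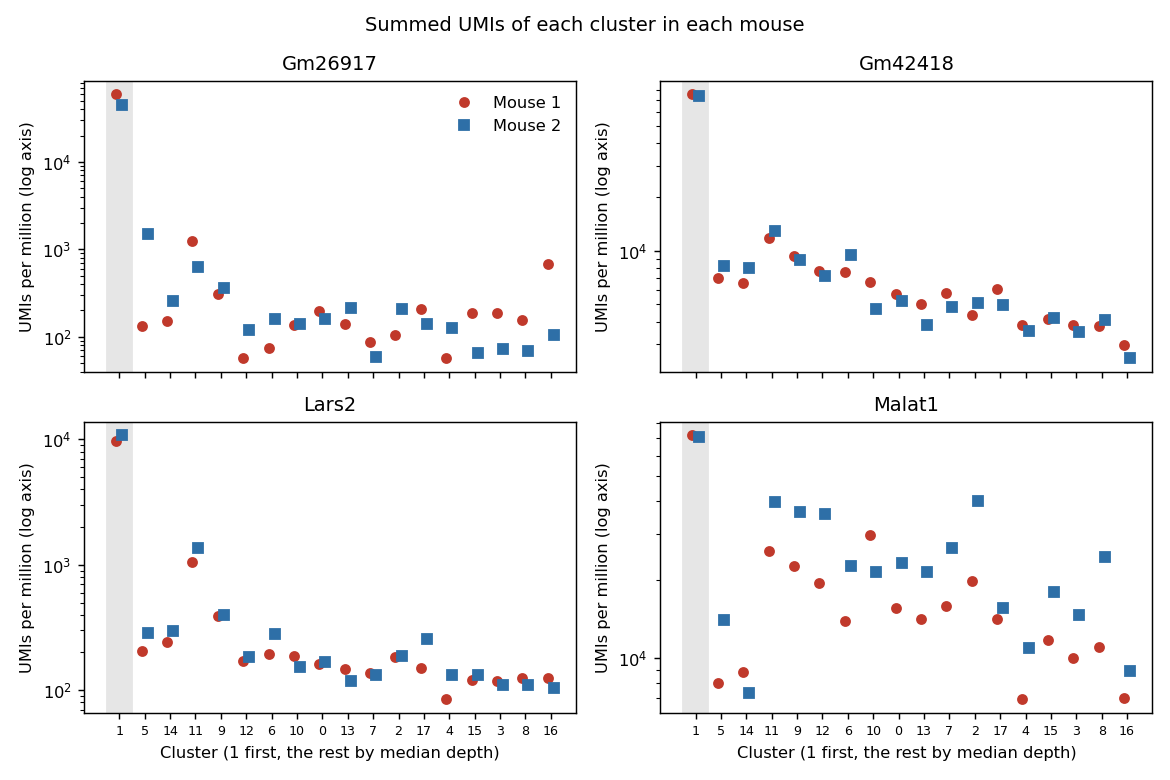
Summed CPM (log axes) of Gm26917, Gm42418, Lars2 and Malat1 in each of the 18 clusters, cluster 1 at the left in grey, in mouse 1 (circles) and mouse 2 (squares). In all 4 panels both cluster 1 points lie above every other cluster, by the widest margin for Gm26917 (59406 and 44744 CPM, against at most 1239 and 1507 CPM).

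Against all other annotated cells, the remaining nuclear noncoding RNAs were split. Of 6 counted members of that list, Malat1 and Firre, a noncoding RNA of the X chromosome, passed 2-fold in both mice (Firre 77.6 and 117 CPM, against 6.28 and 10.4 CPM). Firre passed the filter of 50 CPM only through cluster 1. Of all genes counted, 12.5% were higher. Neat1, the RNA of nuclear paraspeckles, had 3992 and 4329 CPM in cluster 1, against 2369 and 3071 CPM, and Xist, which coats the inactive X chromosome, had 1284 and 2629 CPM, against 767 and 2409 CPM. Neither reached 2-fold in both mice. Against other cells of 500 to 2000 UMIs, Neat1 was at a log2 ratio of 2.64, Kcnq1ot1 at 2.55 and Xist at 1.41, with Malat1 at 2.37, so the order of these RNAs depends on the cells set against cluster 1. Xist and Tsix overlap, are counted as separate genes, and how the counting used strand is not given in the sources used here.

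Across all genes counted, 19 had more UMIs per cell in cluster 1 than in the other cells of both mice, although its cells were far shallower. Besides Gm26917, Gm42418 and Lars2 they include Hexim1, whose protein inhibits the elongation factor P-TEFb. It had 420 and 529 CPM in cluster 1, against 18.2 and 21.9 CPM in the other annotated cells (log2 ratio 4.56 ± 0.05). Rasd1, a small dexamethasone-induced GTPase, had 166 and 324 CPM, against 8.25 and 11.9 CPM (4.55 ± 0.31). Paxbp1, a nuclear protein that binds PAX3 and PAX7, had 390 and 284 CPM, against 28.8 and 32.5 CPM (3.44 ± 0.44). All 19 were among the 364 higher genes, which the difference in depth fixes in advance. Hexim1, Rasd1 and Paxbp1 passed the filter of 50 CPM only through cluster 1.

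The immediate early genes, whose products are transcription factors and phosphatases made within minutes of a stimulus, were higher as a group: 8 of 12 counted members passed 2-fold in both mice and none was lower by that margin. Of all genes counted, 12.5% were higher. The median log2 ratio of the 12 was 1.73, against -0.33 over all genes. Fos had 2161 and 2555 CPM in cluster 1, against 220 and 427 CPM in the other annotated cells (2.94 ± 0.51), and Jun had 5228 and 5179 CPM, against 756 and 846 CPM (2.70 ± 0.13). Fosb (2.84 ± 0.72), Egr1 (2.35 ± 0.06), Atf3 (2.33 ± 0.59) and Junb (1.89 ± 0.02) passed as well. Klf6, at 723 and 854 CPM against 1078 and 1258 CPM, and Ier3, at 673 and 716 CPM against 1585 and 1267 CPM, lay on the other side. In UMIs per cell the list was not raised, with 27.1 and 27.7 in cluster 1, against 108 and 83.3.

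Genes of stress pathways differed from each other. Of 4 counted members of the integrated stress response list, Ddit4 (log2 ratio 2.45 ± 0.38), Ppp1r15a (2.23 ± 0.33) and Ddit3 (1.61 ± 0.42) were higher, while Atf4, the factor that drives them, had 186 and 251 CPM in cluster 1, against 229 and 191 CPM. Ddit4, at 35.4 and 61.6 CPM in the other annotated cells, and Ddit3, at 50.8 and 32.9 CPM, passed the filter of 50 CPM only through cluster 1. Of 10 heat shock genes, 1 was higher and 2 were lower, near the 12.5% and 21.2% of all genes counted. The higher one was the inducible chaperone Hspa1a (1061 and 805 CPM, against 260 and 267 CPM), whose reads can be shared with its near-identical copy Hspa1b. Hspb1 and Hspd1 were lower, and the list as a whole had 0.790% and 0.725% of the UMIs, against 1.14% and 1.01%. None of the 4 counted genes of the p53 and cell death list passed, Cdkn1a being at 150 and 159 CPM, against 355 and 296 CPM.

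Further genes among the 15 largest rises at a mean of at least 100 CPM were Hspa2, a chaperone best known from testis (log2 ratio 3.05 ± 0.58), Ier5l (2.97 ± 0.05), the corepressor Tle4 (2.89 ± 0.06), Ppp1r10, a nuclear subunit of protein phosphatase 1 (2.73 ± 0.12), and AC149090.1 (3.09 ± 0.02). Kit, a receptor tyrosine kinase of luminal progenitors, also belongs here, with 289 and 427 CPM in cluster 1, against 36.7 and 71.1 CPM in the other annotated cells (2.78 ± 0.27). These genes, Kit among them, lay under 100 CPM in the other annotated cells and entered this ranking only through cluster 1. Below a mean of 100 CPM some ratios were larger, as for Pou3f1 (5.98 ± 0.76), Hist4h4 (5.55 ± 0.09) and AW011738 (5.02 ± 0.05), which had means of 55.4, 62.8 and 61.9 CPM. They passed the filter of 50 CPM only through cluster 1, with at most 1.64, 2.67 and 4.16 CPM in the other annotated cells. Thinned to 500 UMIs, 14.2% (10.7 to 18.3) and 17.96% (14.7 to 21.6) of cluster 1 cells had a Kit UMI, against 1.98% and 4.31% of the other cells.

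The 13 mitochondrially encoded mRNAs, which code for subunits of the respiratory chain and ATP synthase, were all above the other annotated cells in both mice, and 3 passed 2-fold: mt-Atp8 (log2 ratio 1.39 ± 0.35), mt-Nd4l (1.29 ± 0.14) and mt-Nd5 (1.26 ± 0.13). The smallest ratios were those of mt-Nd1 (0.27 ± 0.08) and mt-Cytb (0.33 ± 0.10). Together they made up 10.3% and 8.96% of the UMIs, against 6.51% and 5.98%. The nuclear genes for subunits of the same complexes lay on the other side. Of 19 counted, 13 were at least 2-fold lower in both mice and none was higher, with a median of -1.46. Among all genes counted, 21.2% were lower and 12.5% higher. Cox4i1 had 397 and 334 CPM in cluster 1, against 932 and 987 CPM in the other annotated cells (-1.40 ± 0.24), and Cox8a had 364 and 375 CPM, against 1102 and 1245 CPM (-1.66 ± 0.10).

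Cytosolic ribosomal protein mRNAs took 12.7% and 10.1% of the UMIs of cluster 1, against 19.6% and 19.9% in the other annotated cells, the lowest share of all 18 clusters in both mice. Of 81 counted genes, 20 were at least 2-fold lower, a share near the 21.2% of all genes counted, and none was higher, with a median log2 ratio of -0.91. The members were not alike: Rpl36 had 4238 and 3015 CPM in cluster 1, against 2566 and 2432 CPM. Of 12 translation factor genes, 5 were lower, among them Rack1, a scaffold protein of the small ribosomal subunit (-1.48 ± 0.02), and the elongation factor Eef1a1 had 1672 and 1754 CPM, against 3114 and 3768 CPM. The summed share of the locus on chromosome 17 was thus higher and that of ribosomal protein mRNA lower in both mice.

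Cytoskeletal and metabolic mRNAs were lower, set beside 21.2% lower and 12.5% higher among all genes counted. Of 10 actin and thymosin genes, 7 were lower and none higher. Actb had 1474 and 1700 CPM in cluster 1, against 7110 and 6913 CPM in the other annotated cells (log2 ratio -2.15 ± 0.17), while Tmsb10 was level at 1218 and 989 CPM, against 1049 and 1126 CPM. Of 10 hypoxia and glycolysis genes, 7 were lower, Gapdh by -1.58 ± 0.09 and Aldoa by -1.46 ± 0.23, whereas Vegfa had 283 and 387 CPM, against 144 and 124 CPM, just short of 2-fold in mouse 1. Of 10 antioxidant and metallothionein genes, 6 were lower, including both ferritin chains, Fth1 (-2.31 ± 0.66) and Ftl1 (-1.48 ± 0.34), and 1 was higher, Gclc, the catalytic subunit that starts glutathione synthesis (1.81 ± 0.73). Of 12 genes of the endoplasmic reticulum and secretory route, 5 were lower, with Hspa5 at 594 and 711 CPM, against 648 and 477 CPM.

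**Figure D3:**
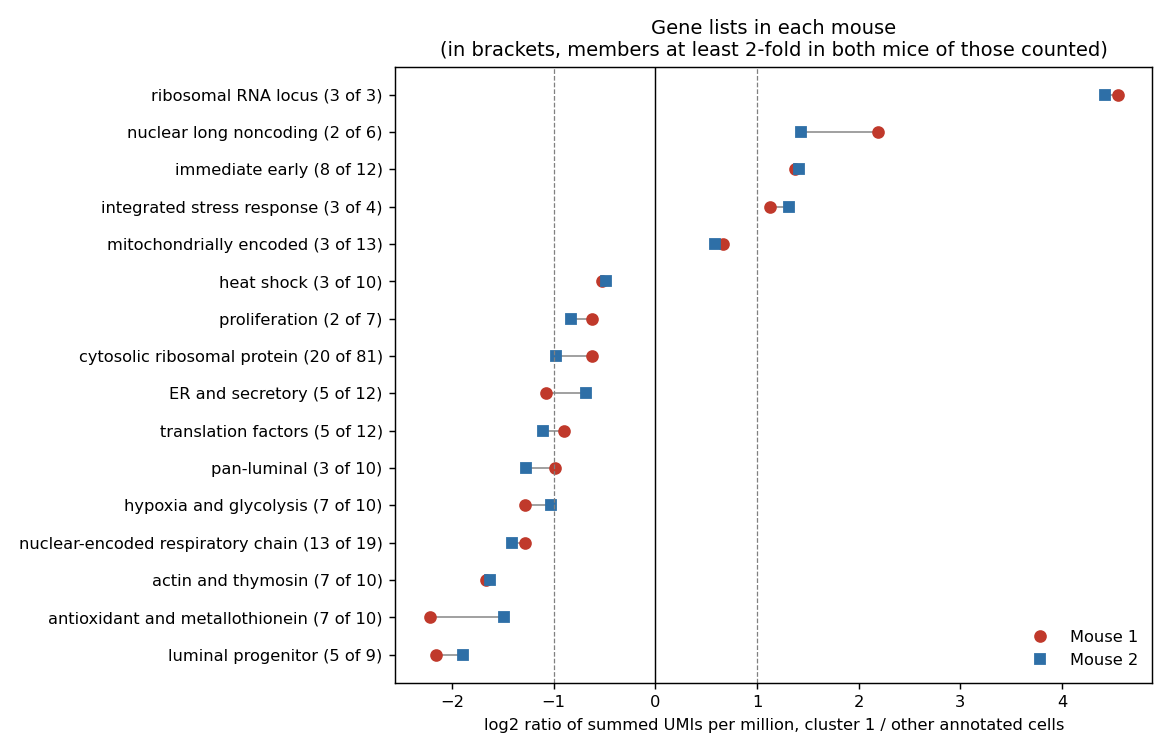
Log2 ratio of the summed CPM of 16 gene lists, cluster 1 over the other annotated cells, in mouse 1 (circles) and mouse 2 (squares); dashed lines mark 2-fold, and brackets give members at least 2-fold in both mice, in either direction, of those counted. The 3 transcripts of the ribosomal RNA locus stand at the top, mitochondrially encoded mRNAs lie above 0, and the nuclear genes of the same respiratory complexes lie below -1 in both mice.

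Luminal keratins and other epithelial mRNAs were detected at lower levels than in the other annotated cells. Of 10 pan-luminal genes, 3 were lower, where 21.2% of all genes counted were, and none was higher. Krt8, the keratin whose promoter drives the label, had 2358 and 2416 CPM in cluster 1, against 4780 and 6554 CPM in the other annotated cells (log2 ratio -1.23 ± 0.30), and its partner Krt18 had 2798 and 2435 CPM, against 4096 and 6072 CPM. Epcam, an adhesion molecule of epithelia, had 2098 and 1873 CPM, against 6648 and 5062 CPM (-1.55 ± 0.16). Thinned to 500 UMIs, 54.5% (49.1 to 59.8) and 56.5% (52.0 to 60.9) of cluster 1 cells had a Krt8 UMI, against 73.8% and 82.5% of the other cells. No cell type without keratins was at hand as a background for these shares.

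Luminal progenitor and secretory genes were lower by more. Of 9 counted progenitor genes, 4 were lower, Lcn2, Wfdc18, Trf and Plet1, and 1 was higher, Kit. Among all genes counted, 21.2% were lower and 12.5% higher. Lcn2, an iron-binding defence protein, had 2123 and 2211 CPM in cluster 1, against 11178 and 10195 CPM in the other annotated cells (-2.30 ± 0.14), and 39.7% and 37.3% of thinned cells had a UMI of it, against 87.9% and 85.4%. Wfdc18 had 3265 and 2707 CPM, against 12386 and 9650 CPM (-1.88 ± 0.06). Both counted milk protein genes were lower, Csn3 (-2.13 ± 0.55) and Lalba (-2.61 ± 0.04), as were the 3 counted mature luminal genes, Esr1 (-2.03 ± 0.58), Prlr (-1.36 ± 0.40) and the growth factor Areg (-2.54 ± 0.11).

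The 15 largest falls were ranked among genes with a mean of at least 100 CPM. Ly6a, the stem cell antigen Sca-1, had 18.04 and 2.75 CPM in cluster 1, from 10 and 2 UMIs, against 273 and 124 CPM in the other annotated cells (log2 ratio -4.71 ± 1.11). Csf3, the granulocyte growth factor, had 37.9 and 41.2 CPM, against 666 and 472 CPM (-3.83 ± 0.44), and the protease inhibitor Slpi had 48.7 and 33.0 CPM, against 584 and 258 CPM (-3.28 ± 0.44). F3, the tissue factor of coagulation, had 28.9 and 113 CPM, against 384 and 688 CPM, and the membrane protein Tm4sf1 had 502 and 353 CPM, against 3922 and 2459 CPM. Also in this group were Folr1, Spcs1, Saa2, Spp1, Plet1, Mgp, S100a16 and Scgb2b27, with log2 ratios from -3.02 to -2.34. Mgp, at 32.5 and 15.1 CPM against 308 and 52.3 CPM, rested on 18 and 11 UMIs in cluster 1. Except for Tm4sf1, Spp1 and Plet1, the genes named in this paragraph lay under a mean of 100 CPM in cluster 1. They entered this ranking only through the other annotated cells.

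Sox10, a transcription factor of plasticity, had 148 and 229 CPM in cluster 1, against 130 and 124 CPM in the other annotated cells, short of 2-fold in both mice. Its log2 ratio was 1.56 against cells of 500 to 2000 UMIs, and it was higher than in cluster 10 (1.48 ± 0.10). Mia had a log2 ratio of -1.57 ± 0.52, and Nes, which encodes the filament protein nestin, had 21.6 and 60.4 CPM, against 55.2 and 66.0 CPM. Vim had 25.3 and 12.4 CPM, against 202 and 59.1 CPM, and Spp1 had 112 and 298 CPM, against 970 and 1199 CPM. Basal Krt14 had 14.4 and 64.6 CPM, against 52.3 and 89.9 CPM, and Krt5 1 and 0 UMIs in the whole cluster. Of 7 counted proliferation genes, 2 were lower, H2afz and Tubb5, and Mki67 had 108 and 96.1 CPM, against 18.8 and 53.6 CPM, at least 2-fold higher in mouse 1 only. Against cells of 500 to 2000 UMIs Mki67 was at 2.39, and it passed 2-fold in both mice against clusters 9, 10 and 5, from 60 and 70 UMIs in cluster 1. It had 7.13 and 19.7 CPM in cluster 9, 5.24 and 36.9 CPM in cluster 10 and 2.25 and 19.0 CPM in cluster 5. Against these clusters and against all other annotated cells, Mki67 passed the filter of 50 CPM only through cluster 1. The interferon response list had 1 of 5 genes lower and a median log2 ratio of 0.37, while its sum had -0.69, and the antigen presentation list had 1 of 4 lower. These shares of lower genes, and that of the proliferation list, lie near the 21.2% of all genes counted.

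**Figure D4:**
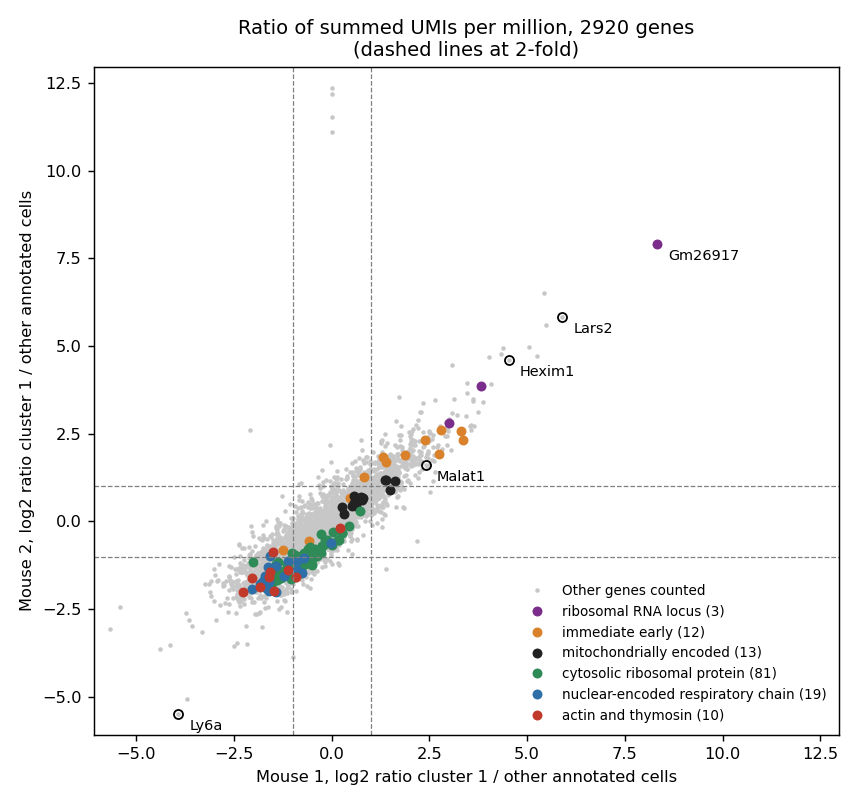
Log2 ratio of cluster 1 over the other annotated cells in mouse 1 (horizontal) and mouse 2 (vertical) for the 2920 genes counted, with 6 gene lists in colour and dashed lines at 2-fold. Ratios of both mice lie along the diagonal from Ly6a (-4.71 on average) to Gm26917 (8.12); the 4 points at 0 in mouse 1 and above 11 in mouse 2 are haemoglobin genes that rest on 1 cell.

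The authors' deposited signature scores, from 0 to 1 per cell, were moved as well. The mean luminal progenitor score was 0.274 and 0.326 in cluster 1, against 0.434 and 0.414 in the other annotated cells. The mean mature luminal score was 0.350 and 0.445, against 0.225 and 0.238, and the mean basal score 0.307 and 0.430, against 0.236 and 0.177. The direction of the mature luminal score differs from that of the mature luminal genes above, all 3 of which were lower against all other annotated cells. Those 3 are the counted ones of 10 on the list, and Esr1 and Prlr passed the filter only through the other annotated cells. Against cells of 500 to 2000 UMIs the sum of that list was lower by less, at a log2 ratio of -0.50. In annotated cells outside cluster 1 with 500 to 2000 UMIs the progenitor score was 0.301 and 0.411, the mature luminal score 0.213 and 0.274, and the basal score 0.337 and 0.236. A score above 0.5 for both progenitor and basal signatures was given to 7.54% and 15.2% of cluster 1 cells, against 8.75% and 7.14% of the others, so the mice differed in the side on which cluster 1 lay.

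Cells within cluster 1 were not uniform in depth. They were split within each mouse into 3 equal groups by UMIs, the shallowest, middle and deepest. The share of the ribosomal RNA locus was 22.2%, 19.5% and 9.34% from shallowest to deepest in mouse 1 and 18.01%, 16.8% and 8.81% in mouse 2. Ribosomal protein mRNA ran the other way, at 7.495%, 8.51% and 15.8% in mouse 1 and 5.00%, 6.08% and 12.9% in mouse 2. The mitochondrial mRNAs increased with depth too, at 8.45%, 9.61% and 11.05% in mouse 1 and 7.69%, 8.39% and 9.49% in mouse 2, whereas Malat1 followed no common course (8.71%, 8.53% and 6.25% in mouse 1, and 6.57%, 7.88% and 6.90% in mouse 2). Even the deepest group, at 1640 to 8677 and 1287 to 20476 UMIs, had a share of the ribosomal RNA locus far above the 0.591% and 0.563% of the other annotated cells.

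**Figure D5:**
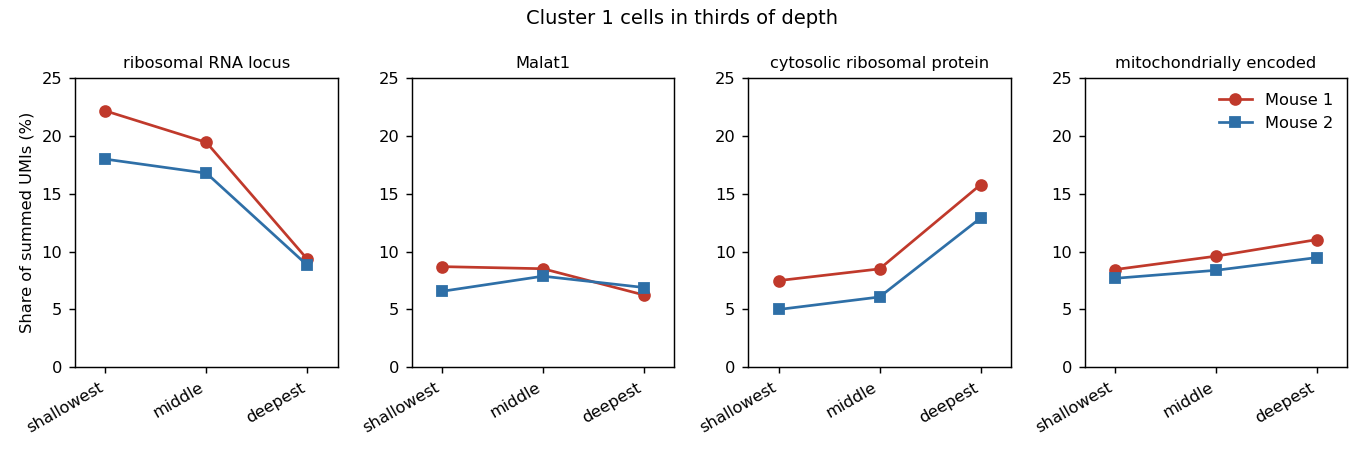
Percent of summed UMIs from the ribosomal RNA locus (3 transcripts), Malat1, cytosolic ribosomal protein genes and the 13 mitochondrially encoded mRNAs in the shallowest, middle and deepest cells of cluster 1, with 115 cells in each group of mouse 1 (circles) and 167 in each of mouse 2 (squares). The locus drops to 9.34% and 8.81% in the deepest cells, where ribosomal protein mRNA reaches 15.8% and 12.9%.

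Over single cells of the cluster, the shares of Gm26917 and of ribosomal protein mRNA had a Spearman correlation of -0.59 in mouse 1 (345 cells) and -0.42 in mouse 2 (501 cells), and Gm26917 and Lars2 one of 0.52 and 0.44. Shares of 1 cell have the same total, so that a high share of 1 transcript lowers the rest, and these values are descriptions. Gm26917 and Gm42418 were at 0.30 and 0.33, and Gm42418 and Lars2 at 0.53 and 0.58. Malat1 departed from these, at -0.11 and -0.35 with Gm26917.

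Genes higher in cluster 1 differed in structure from those lower in it. By GENCODE vM21, which matched 363 of 364 and 620 of 620 genes, the higher genes spanned a median of 35.3 kb with 13 exons and a longest transcript of 5.02 kb. The lower genes spanned 12.3 kb with 5 exons and 1.94 kb, and all genes counted 22.6 kb with 7 exons and 3.35 kb. Single-exon genes were also more frequent among the higher ones, at 14.3%, against 5.00% of the lower and 7.61% of all genes counted. Noncoding genes numbered 16 of the higher (4.41%) and 2 of the lower genes (0.323%), against 1.51% of all genes counted. The higher and lower genes were not matched for abundance.

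The cluster closest in its summed profile was cluster 9 (Spearman 0.57 over the genes counted in both mice), followed by cluster 10 (0.54 and 0.53), and cluster 5, which is next in depth, was further off (0.39 and 0.38). The genes are shared by all these values and are not independent. Against cluster 9, of 2804 genes counted, 272 were at least 2-fold higher in cluster 1 in both mice (9.7%) and 335 lower (11.9%). The 3 transcripts of the ribosomal RNA locus stayed higher, Gm26917 by 7.27 ± 0.44, and so did Lars2 (4.71 ± 0.08) and Hexim1 (2.55 ± 0.05). Malat1 (1.31 ± 0.50) and Kit (0.95 ± 0.10) no longer passed in both mice, nor did any of the 4 integrated stress response genes or the 13 mitochondrial mRNAs, and Hspa1a was lower (-1.78 ± 0.26). The immediate early genes did not stay higher: none of 12 was higher and 4 were lower. Fos had 2161 and 2555 CPM in cluster 1, against 5116 and 8008 CPM in cluster 9, and Jun had 5228 and 5179 CPM, against 4925 and 5018 CPM. Pan-luminal genes were within 2-fold of cluster 9 in all 10 cases, Krt8 at -0.34 ± 0.05, while 6 of 9 progenitor genes were lower, Lcn2 by -2.03 ± 0.27.

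Against cluster 10, of 2987 genes counted, 247 were higher (8.27%) and 502 lower (16.8%). Here 6 of 12 immediate early genes were higher and 1 lower, and 6 of 10 pan-luminal genes were lower, Krt8 by -1.81 ± 0.04. Against cluster 5, of 2790 genes counted, 480 were higher (17.2%) and 613 lower (22.0%). The 2 shallow clusters lay far apart: 9 of 12 immediate early genes were higher in cluster 1, 4 of 13 mitochondrial mRNAs were higher, and 17 of 19 nuclear respiratory chain genes and 47 of 81 ribosomal protein genes were lower. Malat1 had 71950 and 70798 CPM in cluster 1, against 8002 and 13960 CPM in cluster 5 (2.76 ± 0.58). The 3 transcripts of the ribosomal RNA locus were higher in cluster 1 than in each of these 3 clusters.

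The other annotated cells with 500 to 2000 UMIs numbered 225 and 433, of which 188 and 286 belong to clusters 5, 11 and 14. Only these reference cells were limited in depth. All cells of cluster 1 entered, with up to 8677 and 20476 UMIs. Its deepest group, described above, supplied 330473 of 554290 UMIs in mouse 1 and 446503 of 728103 in mouse 2. The 2 sides are therefore not matched for depth. Against these reference cells, some values were smaller and others larger. Gm42418 fell to a log2 ratio of 1.82 in place of 3.85 and Lars2 to 4.004 in place of 5.86, and AY036118, at 0.98 in place of 2.89, was under 2-fold, whereas Gm26917 stood at 7.91, Fos at 2.62 and Lcn2 at -2.19. Epcam, at -0.27, Krt8, at -0.57, and the pan-luminal sum, at -0.33 in place of -1.13, were then within 2-fold on average. The mitochondrial sum was at 1.03 in place of 0.62, and Vegfa at 2.31 in place of 1.31. Neat1, Kcnq1ot1, Sox10 and Mki67, given above, were also at larger ratios. The number of higher genes was 556, and that of lower genes 599, under this choice.

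Signals of other cell types were few. Of the macrophage list, 28 UMIs in mouse 1 and 34 in mouse 2 were found over all cells of cluster 1, or 50.5 and 46.7 CPM, against 25.1 and 29.5 CPM in the other annotated cells, and the granulocyte marker S100a8 had 9 and 43 UMIs. The T and natural killer cell list had 1 and 3 UMIs, the endothelial list 1 and 5, and the adipocyte list 1 and 0. The B cell list had no UMI, which allows up to 3. Fibroblast genes had 21 UMIs in each mouse, or 37.9 and 28.8 CPM, against 309 and 192 CPM, a ratio that turns to 0.49 on the log2 scale without clusters 6 and 13. Pericyte genes had 22 and 44 UMIs, most from Notch3, and the basal and myoepithelial list had 99.2 and 87.9 CPM, against 380 and 251 CPM. Haemoglobin was different: 1 cell of mouse 2 held 2013 of the 2014 haemoglobin UMIs of the cluster, which were 37.5% of its 5371 UMIs, and mouse 1 had none. Without this cell, 362 genes were higher and 612 lower.

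Free RNA, which enters all droplets of a library, was judged only from transcripts that other clusters make, because droplets without cells were not used here. Genes listed as restricted to cluster 13, which had a mean of 69.6 and 38.5 UMIs per cell there, had 0.0928 and 0.0978 UMIs per cell in cluster 1, fewer than in any of the other 16 clusters (0.296 to 3.00 in mouse 1 and 0.110 to 2.12 in mouse 2). They stood at 57.7 and 67.3 CPM in cluster 1, against medians of 78.6 and 68.1 CPM over those clusters. The list is not strictly restricted, since its member Prlr had a UMI in 53.2% and 42.2% of the annotated cells outside cluster 1. Prlr alone had 39.7 and 37.1 CPM in cluster 1. These sums therefore do not measure free RNA alone. Genes restricted to cluster 6 had 5 and 14 UMIs over all cells of cluster 1. That is 9.02 and 19.2 CPM, against medians of 11.1 and 4.46 CPM over the 16 clusters other than 1 and 6, so mouse 2 lay above the median. In UMIs per cell, 13 and 9 of those 16 clusters had more. The milk protein sum, 0.0568% and 0.132% of the UMIs of cluster 1, was below that of the other annotated cells, at 0.315% and 0.456%. What part of the UMIs of a cluster 1 cell is free RNA was not tested. Over both libraries 20 barcodes were shared, 9 of them annotated in both. Of the cluster 1 cells, 6 carried a barcode annotated in both, and 1 such barcode lay in cluster 1 of both mice.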

How the data were processed

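Raw UMI counts are what the authors deposited as matrices (Chromium 3′ v3.1, Cell Ranger 6.0.1, mm10): whole numbers for 32285 genes. Their deposited annotation gives cluster, UMI and gene counts, the mitochondrial share as a fraction of UMIs, and signature scores (VAM) per cell, after Seurat (4.0.3 per the processing notes) with doublets, shallow and high-mitochondrial barcodes and immune clusters removed. Sums held 554290 and 728103 UMIs for cluster 1, against 58075616 and 56244541 UMIs for the other annotated cells, and were scaled to CPM. Genes with a mean of at least 50 CPM over the 4 sums were counted, and called at 2-fold in both mice. Since this mean covers both groups, a gene can pass the filter through 1 group alone, which favors large ratios among such genes. A count of 0 was set to 3 UMIs as a bound. No significance test was made, since the clusters come from the same counts, and the rule for calls was checked on simulated counts with known fold changes. Cells were thinned without replacement (random seed 1). TMM factors are from edgeR 4.0.16 (R 4.3.3), and the rest was computed in Python 3.11.15 with numpy 2.4.6, scipy 1.17.1 and pandas 2.3.3. Of 32285 genes, 38 symbols have more than 1 ID and were kept apart. The members and gene lists were chosen with earlier results of these data known. Named were the genes that the paper names for the single cells, the 15 largest rises and falls with a mean of at least 100 CPM, the 10 most abundant genes, up to 4 members of each list by CPM in cluster 1 and the 13 mitochondrial mRNAs. Egr1, Atf3, Klf6, Ier3, Firre, Hspd1, Gclc, Pou3f1, Hist4h4 and AW011738 were named after their values were seen. Alternatives were the reference cells, depth, denominator, filter, fold and each mouse left out. Sequences are from GENCODE vM21 (GRCm38), and Rn18s-rs5 is from RefSeq (GRCm38.p6).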

Additional observations from a re-analysis of the deposited data

Results flagged for a closer look

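Barcodes without annotation, which enter no comparison above, also carried Gm26917, far above the level of the annotated cells outside cluster 1. It had 9931.8 CPM over 2346 such barcodes of mouse 1 and 5126.3 CPM over 2208 of mouse 2, against 184.8 and 186.8 CPM in the annotated cells outside cluster 1 and a limit of 0.665 and 0.658 CPM that a count of 0 would allow. In cluster 1 it had 59406 and 44744 CPM. These barcodes had a median mitochondrial share of 85.7% and 72.4%, and their Malat1 stood at 24608 and 30967 CPM. The 2311 and 1948 of them with a mitochondrial share above every annotated cell had a median Gm26917 share of 0.0343% in both mice per barcode, against 4.89% and 3.94% in cluster 1, and the highest 5% of them exceeded 8.48% and 6.32%.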

How the results depend on the processing

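All results are descriptions of 2 mice, and cells near the 500 UMI minimum carry few counts. Genes with a mean under 50 CPM over the 4 sums were not counted. Since this mean covers both groups, some genes read above, such as Ly6a, Csf3, Slpi and Mgp, lay under 50 CPM in cluster 1. Their ratios rest on few UMIs there. No paired analysis was possible because both libraries belong to 1 group and no result comes from a test. Each ratio sets cells of 1 mouse against others of that mouse. The number of higher genes was 364 and became 556 against cells of 500 to 2000 UMIs, 791 and 148 with a mean CPM of at least 20 and 100, and 587 at 1.5-fold. The number of lower genes was 620 and became 361 under TMM, 372 with a mean CPM of at least 100, and 1047 at 1.5-fold. With 1 mouse left out there were 457 to 482 higher and 801 to 842 lower genes, since only 1 mouse then had to pass. All 364 higher genes remained higher under TMM, which called 524. The TMM factors raised the ratios of both mice, which fixes this outcome in advance. Among called genes, 48.1% were higher against cells of 500 to 2000 UMIs, in place of 37.0%. Leaving out the haemoglobin cell, an alternative chosen after seeing the data, gave 362 higher and 612 lower genes. The fibroblast and cluster 6-restricted sums turned to log2 ratios of 0.49 and 0.20 when clusters 6 and 13 were left out of the other cells, which by construction removes the cells that make these transcripts. Over 14 alternatives, Gm26917 ranged from 7.69 to 8.40, Gm42418 from 1.82 to 4.13, Lars2 from 4.004 to 6.15, Malat1 from 1.62 to 2.41, Krt8 from -1.44 to -0.57 and Epcam from -1.66 to -0.27. The cause of the other shifts was not tested.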
